A study of Drosophila melanogaster with 3 samples.

Results

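Near-start intron peaks are binding peaks of the slouch protein whose summits lie inside a gene but in no exon, 501 to 2000 bp from the closest start site of a protein-coding transcript, and not on the X chromosome. Of the 2743 peaks in the authors' optimal list, which ranks reproducible peaks of all replicates together, 268 met this rule (9.77%). They were 11.9% of the 2245 optimal peaks outside X. They were set against 2548 comparison peaks, which met the same position rule but came from the part of the authors' pooled list that overlaps no optimal peak. The optimal peaks were the highest-scoring peaks of the pooled list, so score separates the near-start intron peaks from the comparison peaks by construction and is given only as a description.

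The data are chromatin immunoprecipitation followed by sequencing (ChIP-seq) with an anti-GFP antibody. The chromatin came from whole Drosophila melanogaster embryos of mixed sex aged 0 to 24 h, from the transgenic strain slou-GFP, which carries slou with eGFP at its C terminus. The 3 samples are biological replicates of 1 group and no control library is among them, so every comparison is between sets of peaks. The labels name 1 transgenic line, and all cells of the embryo are pooled over all embryonic stages. More cells bound and more binding in each cell cannot be told apart.

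Slouch is an NK-type homeodomain protein that gives identity to subsets of muscle founder cells and is also found in neurons. Homeodomains of this kind bind short sites built around a TAAT core. In flies, introns close to a start site, above all the first intron, often hold enhancers and further promoters.

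The windows of 101 bp around the summits of 6 of the highest-scoring near-start intron peaks are printed below, because they show the base composition that separated these peaks from the comparison peaks. They are read on the plus strand of the RefSeq Release 6 genome (build dm6) and named by host gene. Capitals mark letters covered by any of the 17 6-mers that were more frequent at near-start intron peaks. The TAATTA core was present in the window of CG11050 and in none of the other 5.
ush, 2L:481034-481134, plus strand: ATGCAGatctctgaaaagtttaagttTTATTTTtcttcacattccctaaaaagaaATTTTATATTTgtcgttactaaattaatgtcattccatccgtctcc
CG11050, 2L:6612659-6612759, plus strand: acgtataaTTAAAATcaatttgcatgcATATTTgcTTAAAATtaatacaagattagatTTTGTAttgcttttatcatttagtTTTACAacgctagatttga
Trl, 3L:14759464-14759564, plus strand: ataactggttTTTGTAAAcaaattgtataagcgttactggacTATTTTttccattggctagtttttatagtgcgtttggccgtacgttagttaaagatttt
Lk6, 3R:11761005-11761105, plus strand: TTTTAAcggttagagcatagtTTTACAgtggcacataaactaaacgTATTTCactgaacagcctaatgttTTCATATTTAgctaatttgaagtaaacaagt
CG9663, 2L:3302133-3302233, plus strand: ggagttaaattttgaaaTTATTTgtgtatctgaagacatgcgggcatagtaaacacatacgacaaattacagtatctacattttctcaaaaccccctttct
CG4496, 2L:7188565-7188665, plus strand: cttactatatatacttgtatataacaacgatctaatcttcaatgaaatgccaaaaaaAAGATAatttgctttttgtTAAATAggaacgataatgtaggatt

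The highest of all optimal peaks was a near-start intron peak. Its host gene was ush, whose product is a FOG-type partner of GATA transcription factors, at 2L:480912-481263, and the closest start site, 1396 bp away, belonged to the zinc-finger gene cbt. Its pooled score, the authors' own value on a scale not given in the sources used here, was 1515. It ranked 1, 2 and 2 in replicates 1, 2 and 3, with scores of 416, 582 and 509. The next was in CG11050 at 2L:6612540-6612869 (score 1159), 1022 bp from a start site of the same gene, with ranks of 2, 10 and 4 in the replicates. Both peaks were near the top of every replicate list.

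The other high peaks are named by the role of the host gene, and these groups were not compared with all eligible genes. Several lay in genes of chromatin and transcription. An intron of Trl, which encodes the GAGA factor, held the peak of optimal rank 12 (3L:14759349-14759697, score 855), with replicate ranks of 11, 16 and 15. HmgZ, an HMG-box protein that bends DNA, held the peak of rank 5, with replicate ranks of 5, 4 and 8. Adf1, a transcription factor, held those of ranks 52 and 202, which overlap and match the same peaks of the replicates. The gene wde, a cofactor of an H3K9 methyltransferase, held that of rank 132.

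Genes of signalling and translation were also among the hosts of the 20 highest. Lk6, a kinase of the translation factor eIF4E, held the peak of rank 17 (3R:11760906-11761182, score 794), which ranked 13, 18 and 23 in the replicates. The translational repressor brat held that of rank 102, the Src-inhibiting kinase Csk that of rank 199, and the insulin receptor gene InR that of rank 216. The InR peak ranked 78, 569 and 236 in the replicates, a wider spread than at Lk6. The remaining hosts were CG9663 with peaks of ranks 21 and 171, CG4496, chif (a Dbf4-like regulator of DNA replication), Prps (phosphoribosyl pyrophosphate synthetase), mub (an RNA-binding protein), CG31635, the potassium channel gene KCNQ and CG42327. The KCNQ peak was closest to the start site of mlt. In all, 18 genes hosted the 20 peaks. Of the 20, 18 lay in a first intron, close to the share over all 268 near-start intron peaks (87.7%). All 20 were matched among the 2743 highest-scoring peaks of each replicate. So were 98.4% of the near-start intron peaks among the 1371 highest-scoring optimal peaks.

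**Figure D1:**
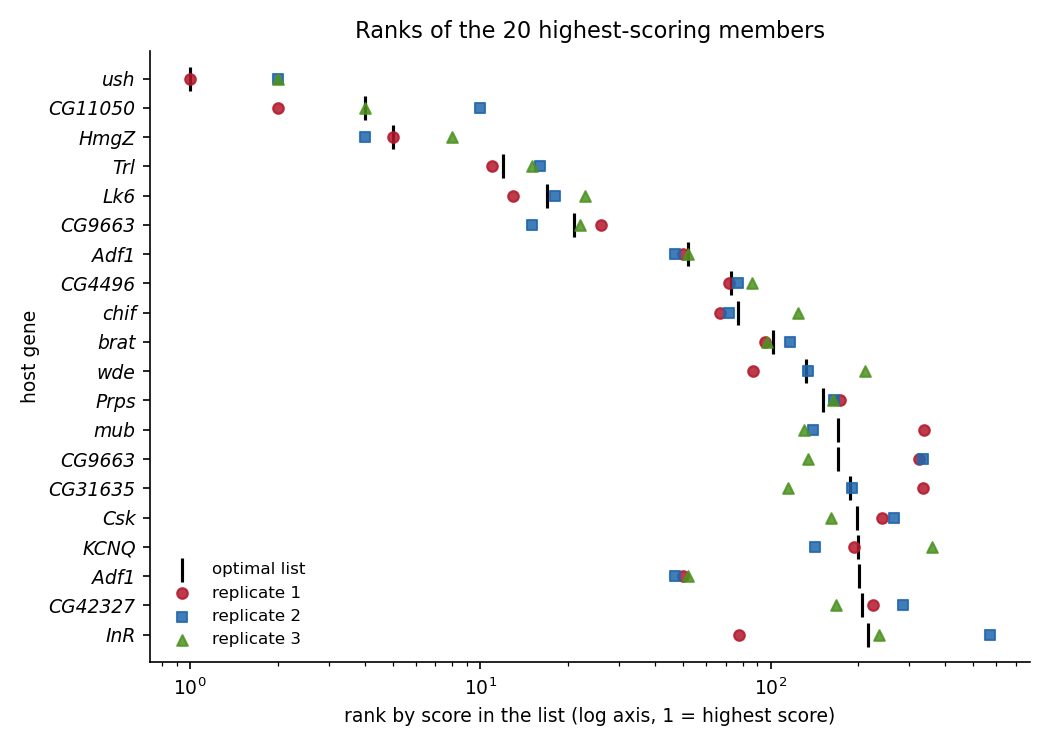
Rank by score, on a log axis, of the 20 highest-scoring near-start intron peaks in the optimal list (bars) and of the best overlapping peak in each replicate (symbols), by host gene. The ush peak ranks 1 in the optimal list and 1, 2 and 2 in the replicates, while the InR peak ranges from 78 to 569.

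Over all 268 peaks the score ran from 92 to 1515 with a median of 130, against 136 for all optimal peaks outside X. The lowest, in Nuak, had optimal rank 2742. The highest comparison peak scored 91.9 at pooled rank 2749, so the sets meet at the end of the optimal list. For 18 of the peaks the summit lay in 2 or more genes. Counted with a single host gene each, the near-start intron peaks were spread over 240 host genes. One gene held 4 of them, 4 genes held 3, 17 held 2 and 218 held 1, and 8 pairs of near-start intron peaks overlapped each other. Another optimal summit lay within 2000 bp of 85 of them (31.7%).

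The gene with 4 was shn, whose zinc-finger product acts in the Dpp pathway and whose best peak had optimal rank 781 and of whose 4 peaks 2 lay in a first intron. Its summits at 11197041 and 11197242 belong to overlapping peaks, which leaves 3 separate loci. Trl, CG9837, CG10543 and CG32264 held 3 peaks each. The 3 peaks in Trl have summits at 3L:14756207, 14759514 and 14760402, and 1 of them lay in a first intron. All 3 summits of CG9837 and all 3 of CG10543 lay in a first intron, in exon-free stretches of 3198 and 3546 bp. HmgZ, CG9663, Adf1, kuk and simj held 2 each. The 2 peaks of CG9663 overlap, with summits at 2L:3302183 and 3302385, as do those of Adf1, kuk and simj. Such pairs are neighbours at 1 locus, and their replicate matches are not independent.

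The position of the summit in the gene was compared with the comparison peaks to ask what the near-start intron peaks share beyond the rule. They lay in a first intron of a protein-coding transcript more often. Of the 268 summits, 235 did so (87.7%, 95% Wilson interval 83.2 to 91.1), against 1889 of 2548 comparison summits (74.1%, 72.4 to 75.8). The odds ratio was 2.48 (Fisher's exact test, two-sided, p = 2.18e-07, adjusted p = 1.09e-06 over 5 position features). The difference held when each replicate was set aside in turn and only peaks found in both others were kept. Near-start intron peaks had to match among the 2743 highest-scoring peaks of both, and comparison peaks anywhere in both lists. The lists of peaks themselves still rested on all 3 replicates. The odds ratios were 1.94 to 2.42 (adjusted exact p = 0.0157, 0.0156 and 0.000407 without replicates 2, 3 and 1). With 1 peak per host gene the odds ratio was 2.51. It was larger beyond 1000 bp from the start site (3.54, adjusted exact p = 3.13e-06) than at 501 to 1000 bp (1.62, adjusted exact p = 0.13), where it did not pass, and the difference between these ranges was not tested. Genes have several transcripts, and 77 of the 268 summits lay in introns of different number in different transcripts, while 167 lay in first introns alone.

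The closest start site was more often one of the host gene itself. This held for 245 near-start intron peaks (91.4%, 87.5 to 94.2) and 2189 comparison peaks (85.9%, 84.5 to 87.2), with an odds ratio of 1.75 (Fisher's exact test, p = 0.0111, adjusted p = 0.0278). This call was lost without replicate 2 (odds ratio 1.63, adjusted exact p = 0.246) and without replicate 3 (1.43, adjusted exact p = 0.432). It was also lost with 1 peak per host gene (1.5, adjusted exact p = 0.105), with the 1371 highest-scoring optimal peaks alone (1.7) and with comparison peaks from the 15000 highest-scoring of the pooled list alone (1.61).

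The other 3 position features did not pass. The summit lay downstream of its closest start site in 169 near-start intron peaks (63.1%) and 1739 comparison peaks (68.2%; odds ratio 0.794, adjusted exact p = 0.108). That start site was the most upstream of its gene in 123 (45.9%) and 1267 (49.7%; odds ratio 0.858, adjusted exact p = 0.248). With 1 peak per host gene both differences passed, with odds ratios of 0.594 and 0.612 (adjusted exact p = 0.000776 for each). An optimal summit lay within 500 bp of the closest start site for 47 near-start intron peaks (17.5%) and 332 comparison peaks (13%; odds ratio 1.42, adjusted exact p = 0.0794). Comparison peaks overlap no optimal peak by definition, while near-start intron peaks may overlap others, so the sets were not on equal terms here.

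**Figure D2:**
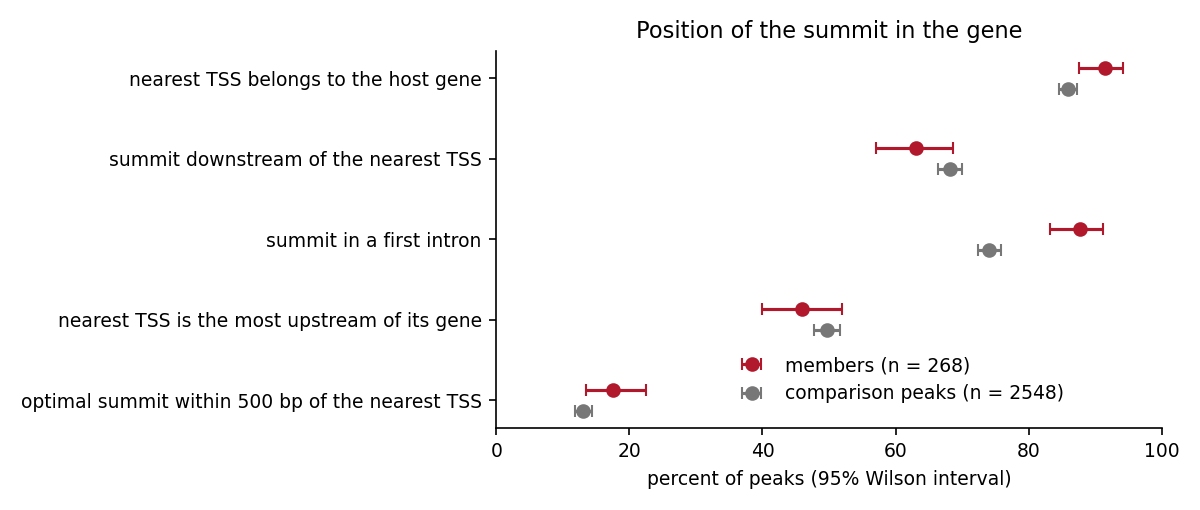
Percent of near-start intron peaks (red, n = 268) and of comparison peaks (grey, n = 2548) with each of 5 position features, with 95% Wilson intervals; TSS is a transcription start site. The intervals are apart for the first intron (87.7% and 74.1%) and for the host gene's own start site (91.4% and 85.9%), and overlap for the others.

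Near-start intron peaks were fewer per Mb farther from the start site, and comparison peaks varied less. Per Mb of intron sequence that meets the rule, there were 46.1 near-start intron peaks at 501 to 800 bp, 39.8 at 801 to 1100 bp, 29.8 at 1101 to 1400 bp, 23.6 at 1401 to 1700 bp and 22 at 1701 to 2000 bp. Comparison peaks numbered 336, 313, 327, 309 and 298 per Mb in the same classes. Of both kinds together, near-start intron peaks made up 12.1% (9.89 to 14.6) in the closest class and 6.87% (4.83 to 9.7) in the farthest. The median distance was 1012 bp, against 1148 bp for comparison peaks. No test was run on this trend, whose classes were drawn after the distances had been seen. The median length of the exon-free stretch around the summit was 2636 bp, against 2607 bp for comparison peaks.

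**Figure D3:**
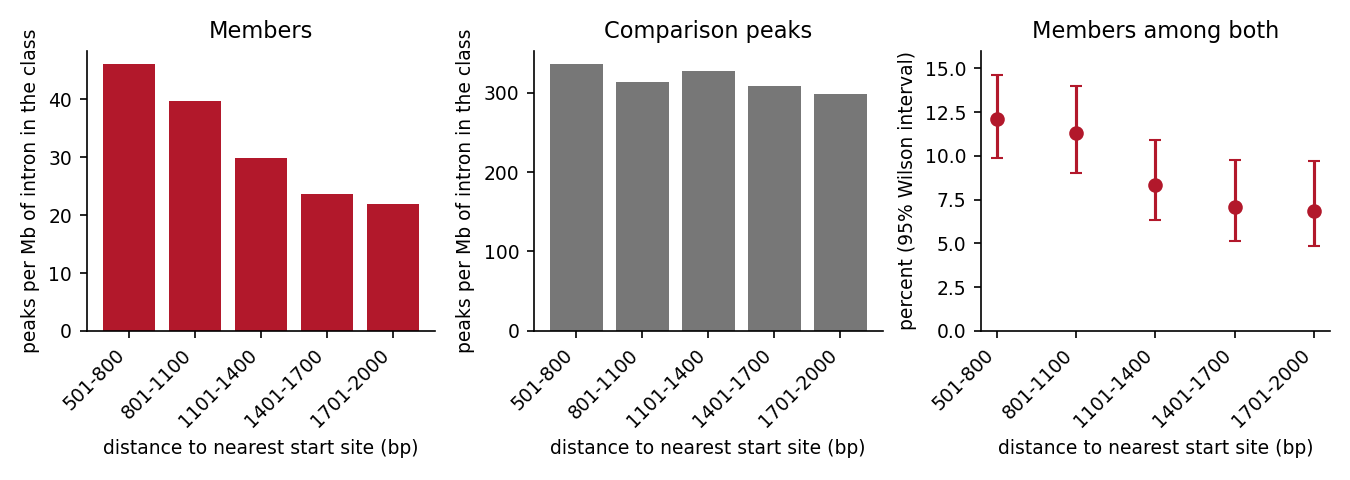
Near-start intron peaks (left) and comparison peaks (middle) per Mb of eligible intron in 5 classes of distance to the closest start site, and the percent of both that are near-start intron peaks with 95% Wilson intervals (right). The density falls by class, 46.1 to 22 per Mb, for near-start intron peaks and lies between 298 and 336 per Mb for comparison peaks.

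Near-start intron peaks were richest in A and T at the summit. Within 50 bp of the summit the A/T share was 67.9% ± 7.09 (SD over 268 windows), against 62.2% ± 8.59 (SD, n = 2548) at comparison summits. In windows centred 500 bp to the left and right of the same summits it was 57.3% and 58.1%. In windows of 51 bp it was 68.6% at the summit, 55.7% at 300 bp to the left and 56.9% at 300 bp to the right, while comparison peaks had 62.3%, 59.4% and 59.5% there. The near-start intron peaks thus had a higher peak of A/T and a lower flank than the comparison peaks. Optimal peaks within 500 bp of a start site had 66.7% ± 9.14 (n = 1312) within 50 bp of the summit, and optimal intron peaks farther than 2000 bp had 67.6% ± 7.42 (n = 335).

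**Figure D4:**
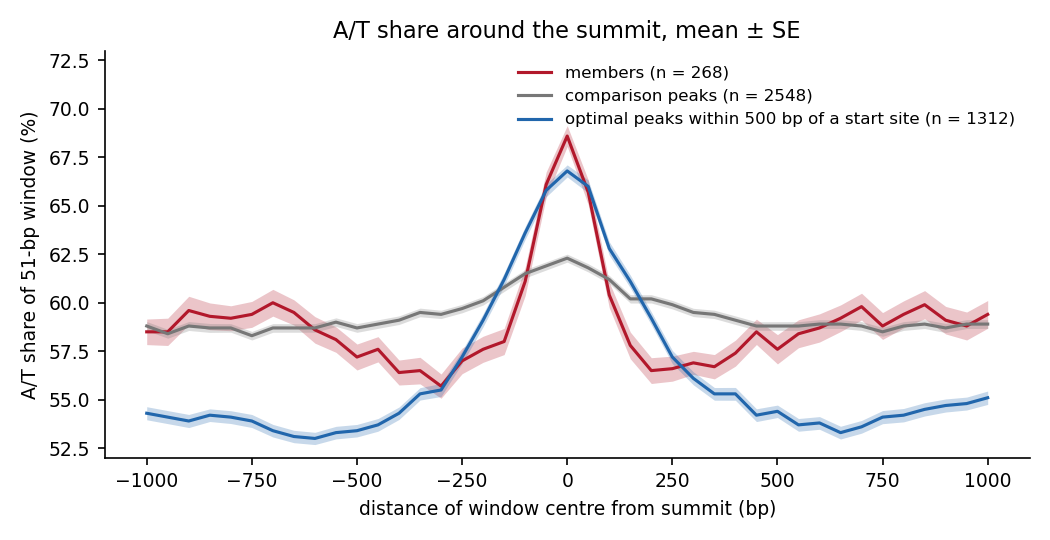
Mean A/T share, with its standard error, of 51-bp windows at distances from -1000 to 1000 bp from the summit in near-start intron peaks, comparison peaks and optimal peaks within 500 bp of a start site. Near-start intron peaks reach 68.6% at the summit and 55.7% at 300 bp to the left, and comparison peaks 62.3% and 59.4%.

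All 2080 strand-merged 6-mers, each counted together with its reverse complement, were then compared between both sets within 50 bp of the summit. Of these, 17 (0.817%) were more frequent and 2 (0.0962%) less frequent at near-start intron peaks by Fisher's exact test at an adjusted p below 0.05. Of the 17, 7 consist of A and T alone. The leading one was TAAATA, the reverse complement of TATTTA, which is part of the site of the muscle factor MEF2. It was present at 95 near-start intron peaks (35.4%) and 541 comparison peaks (21.2%; odds ratio 2.04, adjusted exact p = 0.000981). TGTAAA was present at 22.4% and 11.3% (odds ratio 2.26), AAATAA at 40.7% and 26.4% (1.91), and AGATAT at 15.7% and 6.71% (2.58; adjusted exact p = 0.00114 for each of these 3). ATTTAC (2.26, adjusted exact p = 0.00167) and ATATTA (2.10, adjusted exact p = 0.00183) followed. AAGCCA was present at 1.12% and 7.42% (odds ratio 0.141, adjusted exact p = 0.00273), and AGCGGA at none and 3.73% (adjusted exact p = 0.0171). TAAATA was also at 34% of optimal peaks within 500 bp of a start site and 31.3% of optimal intron peaks farther than 2000 bp. AAATAA (38.1% and 32.5%) and ATATTA (21.6% and 21.8%) were also common there. TGTAAA (14.2% and 15.8%), AGATAT (8.69% and 8.66%) and ATTTAC (11.2% and 16.1%) were less frequent there. AAGCCA was at 5.79% and 7.46%. These differences were not tested.

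How many of these 19 calls held depended on the setting. Against comparison peaks from the 15000 highest-scoring of the pooled list 11 of them held, within 100 bp 12, and with 1 peak per host gene 9. With only the peaks found in both remaining replicates, no 6-mer passed Fisher's exact test without replicate 1, 2 or 3. Unadjusted p was below 0.05 for 135, 141 and 137 of the 2080 6-mers. Words pass this threshold by chance too, and these counts were not tested. The filters differed, since near-start intron peaks had to match among the 2743 highest-scoring peaks of both and comparison peaks anywhere in both lists. These filters also left fewer peaks, 181 to 186 near-start intron peaks and 1013 to 1185 comparison peaks. At equal A/T share, windows are compared within classes of 5 percentage points. Of the 2080 6-mers 120 then had an unadjusted p below 0.05 (Mantel-Haenszel chi-square test). None of the less frequent ones passed after adjustment, and 1 of the 17 did. This was ATGCAG, named after its value was seen, which was present at 25 near-start intron peaks (9.33%) and 96 comparison peaks (3.77%). Within 100 bp and without classes ATGCAG did not pass (13.4% against 8.79%, odds ratio 1.61, Fisher's exact test, adjusted p = 0.216). Its odds ratio at equal A/T share was 3.27 (2.02 to 5.29), past the threshold of the Mantel-Haenszel chi-square test after adjustment. The odds ratio of TAAATA was then 1.31 (0.992 to 1.72) and that of TGTAAA 1.82 (1.32 to 2.5). That of AAGCCA was 0.161 (0.0503 to 0.513), close to its value without classes, though it did not pass (Mantel-Haenszel chi-square test).

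**Figure D5:**
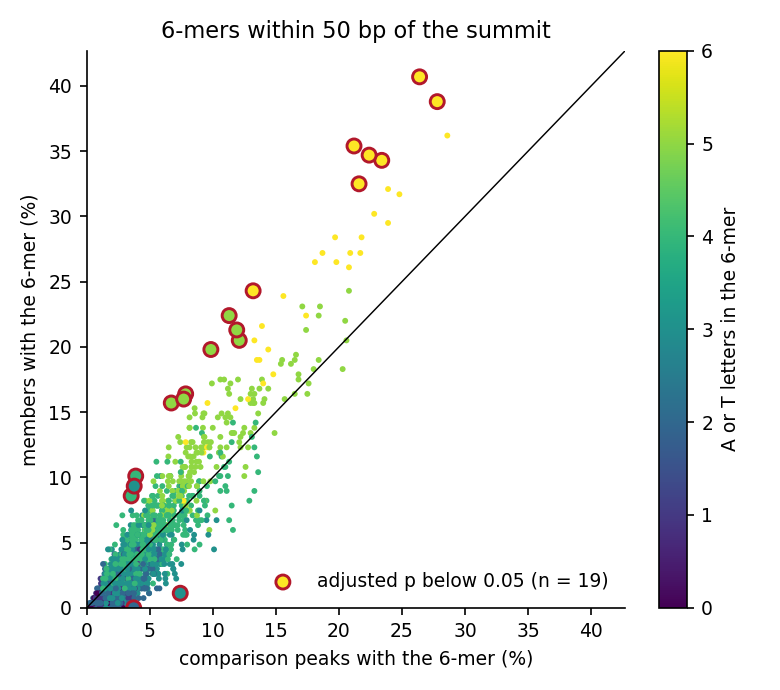
Percent of near-start intron peaks against percent of comparison peaks that hold each of the 2080 6-mers within 50 bp of the summit; colour gives the number of A or T letters, red outlines mark the 19 that passed and the line marks equal shares. The 6-mers of A and T alone, in yellow, lie above the line at the upper right.

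The homeodomain cores were not clearly more frequent than in comparison peaks. TAATTA was present within 50 bp of 33 near-start intron summits (12.3%) and 243 comparison summits (9.54%; odds ratio 1.33, adjusted exact p = 0.611), and its odds ratio at equal A/T share was 0.912 (0.612 to 1.36). TAATTG was present at 27 (10.1%) and 319 (12.5%; odds ratio 0.783, adjusted exact p = 0.724). Within the near-start intron peaks, TAATTA was present in 12 of the 125 among the 1371 highest-scoring optimal peaks (9.6%) and in 21 of the other 143 (14.7%). In the side windows, centred 500 bp from the same summits, 18 held it on each side (6.72%), and it was more frequent at the summit (exact McNemar test, adjusted p = 0.0489 for both sides). The side windows also had a lower A/T share, 57.3% and 58.1% against 67.9% at the summit, and its part in the call was not tested. TAATTG was present at 27 summits, against 30 left and 20 right side windows (exact McNemar test, adjusted p = 0.788 and 0.721). The TAATTA call was lost without each replicate (adjusted exact p = 0.104 to 0.188), with 1 peak per host gene (0.211) and among the 1371 highest-scoring optimal peaks (0.665 and 0.832).

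Sites of the core are shown with 12 bases to each side, for 4 of the other near-start intron peaks that hold it, to let the letters around TAATTA be compared. They lie 8 to 30 bp from the summit, in CG42327, in Msp300, a nesprin that anchors muscle nuclei, in CG32425 and in Irk1, a potassium channel gene. Capitals mark TAATTA, and the genes outside the lists were chosen after their values had been seen. Outside the core a single letter, a t in the right flank, is the same in all 4 as printed. TAATTA reads the same on both strands and gives no direction by which to align the flanks. No shared flank can therefore be read from these 4.
CG42327, 3R:11656755-11656784, plus strand: tgattgagcttaTAATTAatcgccatttct
Msp300, 2L:5145693-5145722, plus strand: gataacaatttaTAATTAaaaatacatttt
CG32425, 3L:20508343-20508372, plus strand: taactcgttgggTAATTAtttcaattatct
Irk1, 3R:23175661-23175690, plus strand: ttggtttagcatTAATTAggtcatcaattc

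The other fixed 6-mers did not pass, except TTAAAA (34.7% against 22.4%, odds ratio 1.84, adjusted exact p = 0.00369), and TATTTA as above. Optimal peaks within 500 bp of a start site held TTAAAA at 37.4%, and farther optimal intron peaks at 33.7%. CAAGTG, the core bound by NK2-type factors such as Tinman, was present at 2.99% of near-start intron peaks and 6.87% of comparison peaks (odds ratio 0.417, adjusted exact p = 0.241). The GAGA repeat GAGAGA was present at 4.85% and 3.92% (odds ratio 1.25, adjusted exact p = 0.831). The Twist-type E-box CATATG was present at 5.6% and 4.28% (odds ratio 1.33, adjusted exact p = 0.769), and CAGGTA, part of the Zelda site, at 1.49% and 2.08% (0.713, adjusted exact p = 0.944).

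Longer words were tested after the 6-mers within 100 bp had been seen and after lists of 8-mers and 10-mers ranked by their count ratio had been looked at, so the word length was picked with the answer in view. Of 32725 strand-merged 8-mers within 100 bp, 6 (0.0183%) were more frequent by Fisher's exact test and 0 (0%) less frequent, with 927 and 38 at an unadjusted p below 0.05. CAGTGTAC was present at 13 near-start intron peaks (4.85%) and 10 comparison peaks (0.392%; odds ratio 12.9, adjusted exact p = 0.000623). It was present at 14 of 1312 optimal peaks within 500 bp of a start site (1.07%) and 9 of 335 optimal intron peaks farther than 2000 bp (2.69%), differences that were not tested. The others were TACACAGA, CTGTGTAC, CACTGTAA and GCAGTGTA, whose letters overlap in part with those of CAGTGTAC or its reverse complement, and AAAATAAT. At least 1 of the 5 without AAAATAAT was present at 49 near-start intron peaks (18.3%) and 91 comparison peaks (3.57%), a description of words chosen on these counts. All 6 calls were lost when any 1 replicate was left out and with 1 peak per host gene. The odds ratio of CAGTGTAC was then 6.39 to 8.81 and 9.07 (adjusted exact p = 1 and 0.112). Without replicates 1, 2 and 3, 541, 756 and 625 of the 32725 8-mers were more frequent at an unadjusted Fisher p below 0.05. Words pass this threshold by chance too, and these counts were not tested.

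The 13 peaks with CAGTGTAC lay in 13 genes, with optimal ranks of 202 to 2250. They were close to all 268 near-start intron peaks in the values that follow. A first intron held 11 of the 13, against 87.7% of all 268, and the median score was 132, against 130. All 3 replicates matched 7 of the 13, against 59.3% of all 268. Sites are shown for 8 of the 13, turned so that CAGTGTAC, in capitals, reads 5′ to 3′, with 16 bases to each side. Outside the 8-mer no letter is the same in all 8. The hosts include ImpL2, which encodes a secreted insulin-binding protein, and mbc, a DOCK-type exchange factor of myoblast fusion, and the others were named after their values had been seen.
Dhc64C, 3L:4824835-4824874, minus strand: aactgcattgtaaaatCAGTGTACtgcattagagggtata
ImpL2, 3L:4228287-4228326, minus strand: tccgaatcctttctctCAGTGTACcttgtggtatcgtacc
RhoGEF64C, 3L:4698141-4698180, minus strand: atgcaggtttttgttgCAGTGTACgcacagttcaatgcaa
CG32264, 3L:3802808-3802847, minus strand: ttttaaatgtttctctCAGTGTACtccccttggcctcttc
CG32428, 3L:20471856-20471895, plus strand: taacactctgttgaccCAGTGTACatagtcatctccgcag
CG14636, 3R:4214153-4214192, minus strand: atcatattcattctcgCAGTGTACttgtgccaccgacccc
Klp98A, 3R:27557169-27557208, minus strand: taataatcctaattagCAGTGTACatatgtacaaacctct
mbc, 3R:23783003-23783042, minus strand: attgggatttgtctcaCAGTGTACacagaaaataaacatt

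The arms of the genome did not separate the sets. Of the near-start intron peaks, 81 lay on 3R, 67 on 2R, 60 on 2L, 59 on 3L and 1 on chromosome 4. The smallest p was that of 3R, which held 30.2% of near-start intron peaks and 23.4% of comparison peaks (odds ratio 1.42, Fisher's exact test, p = 0.0161, adjusted p = 0.0804 over 5 arms).

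Near-start intron peaks were then set against other optimal peaks, to ask where this position differs within the list. Fewer of them were among the 1371 highest-scoring optimal peaks than of the optimal peaks within 500 bp of a start site, 125 (46.6%) against 726 of 1312 (55.3%; odds ratio 0.706, Fisher's exact test, adjusted p = 0.0211). The call was lost without replicate 1, 2 or 3 (odds ratios of 0.746 to 0.829, adjusted exact p = 0.208 to 0.348). Of the optimal intron peaks farther than 2000 bp from a start site 134 of 335 were in that upper part (40%; odds ratio 1.31, adjusted exact p = 0.116). TAATTA was present at 12.3% of near-start intron peaks, 11.4% of optimal peaks near a start site and 11% of optimal intron peaks farther away, and TAATTG at 10.1%, 10.8% and 14%. None of these 4 differences passed (adjusted exact p = 0.678 to 0.828).

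Each replicate carried about the same share of the near-start intron peaks. Among the 2743 highest-scoring peaks of replicates 1, 2 and 3, 220 (82.1%), 221 (82.5%) and 217 (81%) were matched. In all 3 replicates 159 were matched, in 2 replicates 73, in 1 replicate 35 and in none 1, the peak of optimal rank 2702 in CG42784. Over the whole lists of the replicates, 259 were matched in all 3 and 9 in 2. The other optimal peaks outside X were matched at 79.3%, 84.4% and 85.1%, and no difference passed (Fisher's exact test, adjusted p = 0.258 to 0.422). Since the optimal list comes from the same replicates, these shares are not independent evidence of reproducibility.

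Genes that host a near-start intron peak were counted in 16 lists of developmental and cellular genes. Over all protein-coding genes outside X with intron sequence that meets the rule, 254 of 7586 hosted at least 1 (3.35%), with a peak in several genes counted for each of them. Over the lists together it was 33 of 262 (12.6%). Genes of the lists hold more intron sequence that meets the rule, with medians of 915 to 3384 bp in total per gene by list. The median was 360 bp over all eligible genes and 3117 bp over the genes that hosted a peak. The part of this amount of sequence in these counts was not tested.

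Of the 16 lists, that of receptor tyrosine kinase signalling had the largest share of hosts. Of 23 eligible genes of EGF and FGF receptor signalling 7 hosted a near-start intron peak (30.4%). They span the pathway from ligands to repressors. The ligand gene ths hosted that of rank 590 and the EGF-like ligand gene Krn that of rank 1634, which also lies in Ndfip, while S, which acts in the export of such ligands, hosted that of rank 812. The Grb2 adaptor gene drk hosted that of rank 317, the highest of the list, though the closest start site there was that of mars. The inhibitor sty, the repressor gene aop and the receptor gene Egfr, named after their ranks were seen, followed at ranks 1774, 1949 and 2564.

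In the list of actin and cell polarity 5 of 20 hosted a peak (25%), the highest in tsr (cofilin, rank 272), cno (a junction protein, rank 393), capu (a formin, rank 1040) and chb (a microtubule plus-end protein, rank 1531). In the Dpp pathway it was 3 of 12 (25%), namely the type II receptor wit (rank 484), shn and the signal transducer Mad (rank 1254). In Notch signalling and asymmetric division it was 3 of 14 (21.4%), namely brat, the spindle adaptor insc (rank 1578, in an overlap with sktl, whose start site was the closest) and the ubiquitin ligase neur (rank 2000). Insulin and TOR signalling had 3 of 16 (18.8%), with Lk6, InR and sima, the hypoxia factor (rank 1000).

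None of 18 eligible muscle identity factors hosted a near-start intron peak, a count near the share of 3.35% over all eligible genes. Among myoblast fusion genes 2 of 12 did (16.7%), siz (rank 1658) and mbc (rank 2250), which both encode exchange factors of small GTPases. Among sarcomere and attachment genes 3 of 20 did (15%), Msp300 (rank 495), rhea, which encodes talin (rank 1213), and Zasp66 (rank 2184). The slou gene itself, at 3R:21548661-21557182, has 450 bp of eligible intron and held neither a near-start intron peak nor a comparison peak.

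In the other lists the counts were small. They were 2 of 15 for the ecdysone cascade (13.3%; tai and ImpL2), 2 of 25 for insulator and chromatin factors (8%; Trl and psq), 1 of 12 for haemocytes and fat body (8.33%; ush), 1 of 15 for neuroblast and temporal factors (6.67%; zfh1) and 1 of 19 for axon guidance and neuronal adhesion (5.26%; fra). None of 17 genes of Wingless and Hedgehog signalling, 13 of the Hox list or 15 of growth, Hippo and Myc hosted a near-start intron peak.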

How the data were processed

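Per the deposited README files, the authors called peaks in each of the 3 replicates and on the replicates pooled, each with a control alignment, and derived an optimal list; which aligner and which peak caller they used is not given in the sources used here. Only the dm6 lists were used. The deposited score is the authors' value per peak on a scale not given in the sources used here, and the deposited −log10 q served only as a description, with 54.1% of the near-start intron peaks at the highest value of the list. No read counts are in the files, so depth is unknown, and Wilson intervals (95%) cover counting error over peaks only.

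All 2743 optimal peaks were identical to rows of the pooled list of 30000 and were its highest-scoring ones; 26843 pooled peaks overlap no optimal peak. The summit is the deposited offset from the peak start. Gene models were from Ensembl release 115 (BDGP 6.54), and sequence from RefSeq Release 6, whose arms match the dm6 coordinates. Coordinates are 1-based. A replicate matched a peak when any of its 2743 highest-scoring peaks overlapped it by at least 1 bp. Where a replicate was left out, comparison peaks could instead match any peak in the lists of the others. A gene was eligible when at least 1 intron base met the rule; of 350 list symbols, 9 were not matched.

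Fisher's exact test, the exact McNemar test and a Mantel-Haenszel odds ratio over classes of A/T share were run in Python 3.11.15. They were two-sided, with Benjamini-Hochberg adjustment within each family. Their units are peaks, which are not independent and are not libraries.

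The genes named are slou, those at the 20 highest-scoring near-start intron peaks, the 10 hosting most of them and up to 4 of each list; the 6-mers named are a fixed set and those with the smallest p. The set of peaks, the gene lists and the tests were chosen with earlier results of these data known.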

Additional observations from a re-analysis of the deposited data

How the results depend on the processing

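The 8-mer tests were chosen after seeing the data. Without a replicate, only peaks found in both others were used. Optimal peaks had to match among the 2743 highest-scoring peaks of each, and comparison peaks anywhere in each list. The optimal and pooled lists themselves still rested on all 3 replicates. The first intron kept its direction in all alternatives run and missed the threshold only at 501 to 1000 bp (1.62). The host gene's own start site (odds ratio 1.43 to 2.08 without a replicate) missed it among the 1371 highest-scoring optimal peaks (1.7), against higher-scoring comparison peaks (1.61), with 1 peak per host gene (1.5), at 501 to 1000 bp (1.73) and beyond 1000 bp (1.7). With 1 peak per host gene, the downstream share (0.594) and the most upstream start site (0.612) passed. With start sites of all biotypes, the most upstream start site (0.676) and a bound start site (1.64) passed. A bound start site also did beyond 1000 bp (1.74), where the most upstream start site turned to 1.04. Since comparison peaks overlap no optimal peak by definition, the sets were not on equal terms for a bound start site. More and less frequent 6-mers numbered 0 and 0 without a replicate, among the 1371 and when matched in all 3 replicates. In the last 2 settings 129 and 166 of the 2080 had an unadjusted Fisher p below 0.05, a threshold that some pass by chance. The numbers were 10 and 1 against higher-scoring comparison peaks, 8 and 1 with 1 peak per host gene, and 3 and 0 at 501 to 1000 bp. They were 7 and 0 beyond 1000 bp, 31 and 12 within 100 bp, and 1 and 0 at equal A/T share. The 8-mer calls fell to 0 without a replicate and with 1 peak per host gene; a chi-square p at equal A/T share would have called 129, but its counts per class are too small for that p and it was not used. TAATTA against the left and right windows gave ratios of 1.90 to 2.38 and 1.64 to 1.83 without a replicate, 1.83 and 1.20 among the 1371, 2.29 and 1.58 when matched in all 3, and 1.75 and 1.56 with 1 peak per host gene; within 100 bp the left one passed (2.69, adjusted exact McNemar p = 0.00117) and the right one did not (1.34). Among values that never passed, TAATTA against comparison peaks turned to 0.724 at 501 to 1000 bp and 0.912 at equal A/T share; 2R turned to 1.12 to 1.24 without a replicate, 1.35 among the 1371 and 1.33 when matched in all 3; TAATTA against optimal peaks near a start site was 0.982 to 1.00 without a replicate, 0.891 with 1 peak per host gene and 0.942 within 100 bp, and against farther intron peaks 0.999 to 1.15 without a replicate; TAATTG against those near a start site was 0.940 to 1.04 without a replicate, 0.985 with 1 peak per host gene, 0.848 within 100 bp and 0.839 at equal A/T share; the share among the 1371 was 0.881 to 1.41 against farther intron peaks without a replicate. Against optimal peaks near a start site that share, which passed with all peaks (0.706) and with 1 peak per host gene (0.707), was 0.746 to 0.829 without a replicate and did not pass. On average a replicate matched 76.4% at 50% reciprocal overlap, 77.4% by summits within 100 bp, 50.2% and 95.3% with lists of 1371 and 5486, and 99.5% of those among the 1371; support in all replicates was 50.4%, 50%, 31.3%, 86.2% and 98.4% in the same order, 67.5% to 69.4% without a replicate. Against other optimal peaks, support turned to 0.869 and 1.68 in replicates 1 and 3 with the longer lists and 1.07 in replicate 2 among the 1371, where replicates 1 and 3 matched all and gave no odds ratio. Peaks matched in all 3 numbered 159. The causes were not tested. No paired analysis was possible because there is 1 group.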
